A study of Ditylenchus destructor and Heterodera glycines and Meloidogyne incognita with 162 samples.

Results

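Operon-like runs of genes were collected from the gene table of the soybean cyst nematode Heterodera glycines. The genes were ordered by contig and start, and a run was a stretch of at least 3 neighbouring genes on 1 contig and 1 strand in which each gene started 1 to 500 bases after the end of the one before it. This gave 368 runs with 1236 genes, which is 6.78% of the 18219 genes in the table. The rule used positions and strands only, so the expression values below did not choose the members.

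In nematodes such as Caenorhabditis elegans, an operon is a set of neighbouring genes transcribed from a shared promoter as 1 long RNA. That RNA is cut into separate messages, and the downstream messages receive a short spliced leader by trans-splicing. Genes in such operons lie close together on the same strand, and many of them serve functions that all cells need. Whether a run found here is transcribed as 1 RNA cannot be read from these counts, since no spliced leader, promoter or strand of the reads was measured. The gene IDs were not paired with names, so no function is given for any gene below.

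The study sequenced single embryos of 3 plant-parasitic nematodes, H. glycines, Ditylenchus destructor and Meloidogyne incognita, with Smart-seq2, a method that copies polyadenylated RNA from very little material. H. glycines was sampled at 11 stages, which begin with Zygote, the cleavage stages 2-cell, 4-cell and 8-cell, and the later 24-44cell and 64-78cell, go on with Comma and the elongating 1.5-fold and 2-fold embryos, and end with Moving embryos and the L1 juvenile. All were untreated whole organisms, and there was no mutant or control group. After 2 near-identical Moving columns, which differed in 17 genes, were counted as 1 library, there were 4 libraries at 2-fold, 4 at Moving and 5 at each other stage.

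The 53 H. glycines libraries held 181109 to 10955776 counts, with a median of 4166536. The 5 Comma libraries, with 432574 to 1828689 counts, stood apart: the median gene outside runs had 22.2 CPM there (CPM, counts scaled to a library total of 1000000) and 1.09 to 6.40 CPM at the other stages. Some results that rest on Comma are given with and without it, and the others include it. The libraries were whole embryos, so a lower level in a later embryo may mean fewer cells of a type or less RNA per cell, and these cannot be told apart. Nothing in the labels states that embryos were taken from different cultures, and each edgeR p-value therefore covers only the variation among the embryos at hand. The paper states that more samples were taken per stage than were kept as replicates, so these embryos are a selected set. The permutation p-values below are over stages, which share the same gene pairs and are not independent. They cover only how steady a difference was from stage to stage.

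Most runs were short. There were 277 runs of 3 genes, 73 of 4, 7 of 5, 6 of 6, 2 of 7, 1 of 8 and 2 of 10. They lay on 112 of the 238 contigs, 178 on the plus and 190 on the minus strand, and the median run was 7704 bases long from the first base of its first gene to the last base of its last. Runs of only 2 genes, which the rule left out, numbered 1408.

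The 868 neighbouring pairs inside runs were 9.73% of all 8918 neighbouring pairs on the same strand. Their gaps ran between 22 and 499 bases with a median of 217.5, and the fullest 50-base bin was 151 to 200 bases with 147 pairs. At the limit of the rule, 12 run pairs had a gap in the last 10 bases inside it, and 35 same-strand pairs had a gap in the first 10 bases beyond it. By the same rule D. destructor had 641 genes in 199 runs, 4.06% of its genes, and M. incognita had 7293 genes in 1733 runs, 16.1% of its genes.

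**Figure D1:**
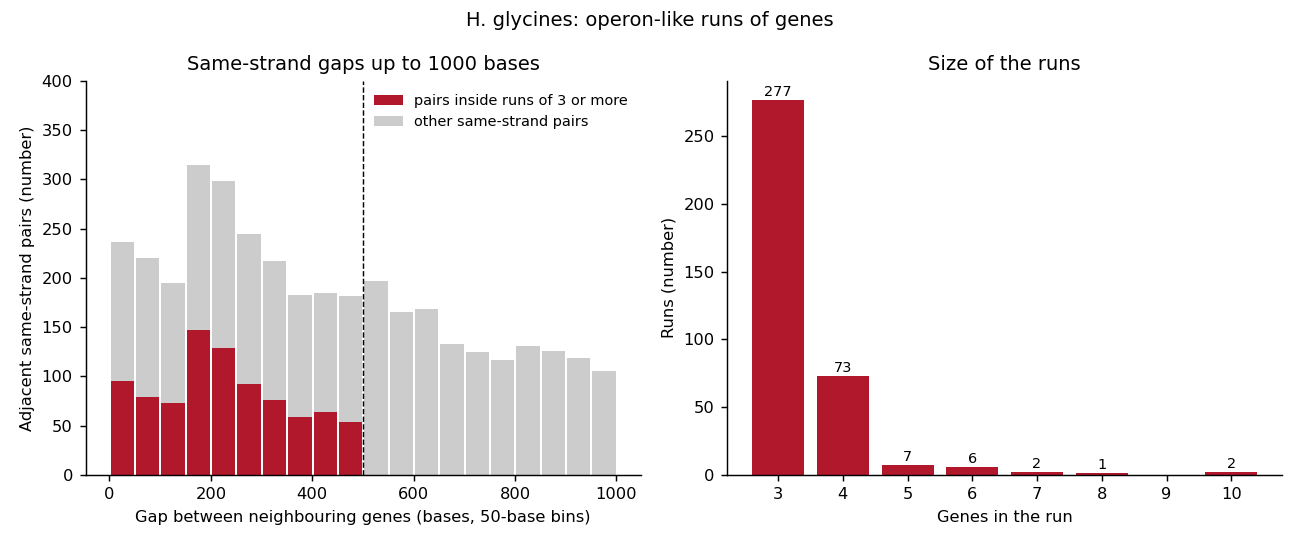
Left, number of neighbouring same-strand gene pairs (y axis) by gap in bases (x axis, 50-base bins), with pairs inside runs in red, other same-strand pairs stacked in grey and the 500-base limit dashed. Right, number of runs (y axis) by number of genes in the run (x axis). Run pairs peak at 151 to 200 bases (147 pairs), and 277 of the 368 runs have 3 genes.

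A small class of runs had evenly spaced genes. In 17 runs, with 72 genes, at least 2 gaps in a row were identical to the base, a feature noticed after the data were seen. The run HG14759-HG14765 (contig 193, 3858968 to 3871592, plus strand) had 7 genes with every gap at 95 bases, and its 7 genes summed to 0.102 CPM over the stages. In HG13627-HG13636 (contig 187, 111930 to 124199, minus strand), 6 neighbouring genes each spanned 860 bases at gaps of 161 bases. Of those 6 genes, 4 had no counts in any library. Of the other genes of that run, HG13635 was much like them, with 857 bases and 0.0224 CPM, and HG13636 averaged 0.970 CPM. Only HG13627, at 347 CPM, and HG13628, at 59.4 CPM, were above 1 CPM on average.

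Genes of evenly spaced runs were mostly near absent. Of the 72 genes, 49 (68.1%) averaged under 1 CPM, against 107 of the other 1164 members (9.19%). Their median level was 0.190 CPM, against 47.8 CPM in the other members. The other run of 10 genes, HG12804-HG12813 (contig 184, 729365 to 735811, plus strand), was not evenly spaced, and its 10 genes together averaged 0.233 CPM. No sequence of these genes was at hand, so whether they are near-identical copies of each other, whose counts would be uncertain, was not tested.

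Taken as a group, the genes of runs were present at higher levels than the rest of the genome. The median member averaged 41.4 CPM over the stages, against 10.6 CPM for the other 16983 genes. Per kilobase of genomic span, introns included, the medians were 19.9 CPM in members and 4.6 CPM in other genes, and the median spans were 1731 and 2073 bases. Close pairs outside runs were also expressed above distant ones. Among neighbouring pairs with both genes at a mean of at least 1 CPM, the lower gene had a median of 33.4 CPM in run pairs. Same-strand pairs with a gap of 1 to 500 bases outside runs had 22.0 CPM, and opposite-strand pairs at these gaps had 21.7 CPM. Same-strand pairs over 5000 bases apart had 3.80 CPM. A mean of at least 1 CPM at all 11 stages was reached by 782 members (63.3%) and by 37.5% of the other genes. At the low end, 156 members averaged under 1 CPM and 21 had no counts.

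The same held in single embryos. Members were detected at 1 CPM or more at a higher percentage than other genes in 53 of 53 libraries. Averaged over the 11 stage means, 70.9% ± 5.63 of members and 52.9% ± 8.96 of other genes were detected (SD, n = 11 stages). The gap was smallest at Comma, where 73.6% of members and 69.2% of other genes were detected, and largest at Zygote, where 59.5% of members and 36.7% of other genes were detected.

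Genes of runs took up more of the RNA in early than in late embryos. Their share of a library's counts averaged 11.5% at Zygote, 9.84% at 2-cell, 10.6% at 4-cell, 11.7% at 8-cell, 11.6% at 24-44cell, 11.4% at 64-78cell, 7.68% at Comma, 9.06% at 1.5-fold, 8.72% at 2-fold, 7.30% at Moving and 7.02% at L1. The 1.5-fold libraries held 8.73 to 9.37%, against 11.3 to 12.3% in 24-44cell libraries, and the L1 libraries held 6.0 to 7.96%, below all 1.5-fold libraries. The 24-44cell libraries overlapped the Zygote libraries, which held 10.7 to 12.3%. The shares are a description, with no test, because the members were chosen as a group. They also depend on the scale, since the mean log2(CPM + 1) of the members was 0.11 higher, not lower, at 1.5-fold than at 24-44cell.

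**Figure D2:**
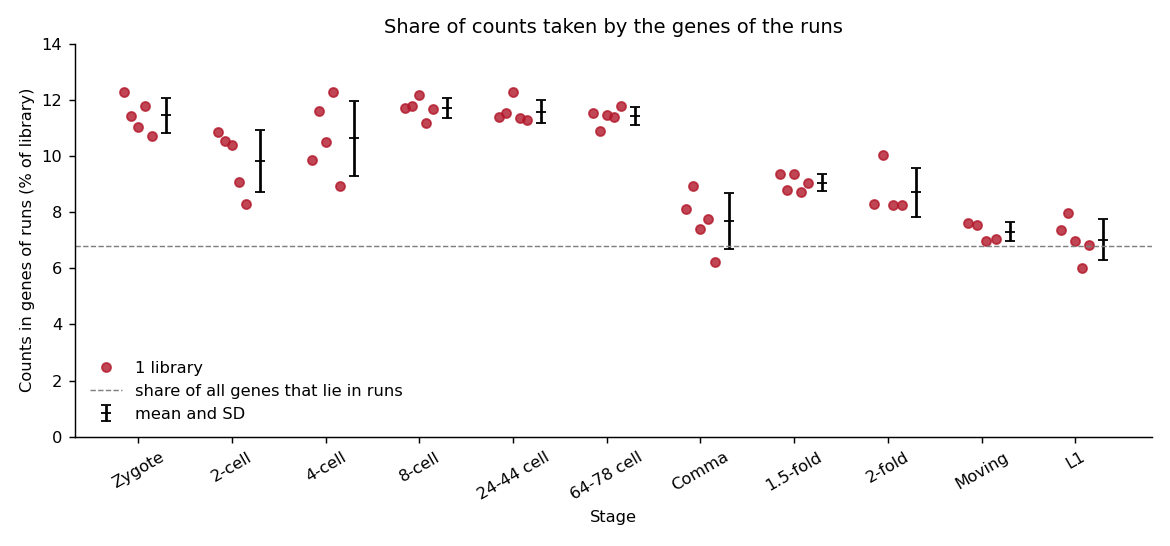
Percent of a library's counts that fell in genes of runs (y axis) at the 11 stages (x axis), with 1 point per library, the mean and SD in black, and a dashed line at 6.78%, the percent of all genes that lie in runs. Stage means are 9.84 to 11.7% up to 64-78cell and 7.02 to 9.06% from Comma on.

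To ask whether neighbours in a run change together, the Pearson r of log2(CPM + 1) over the 11 stage means was taken for each neighbouring pair whose genes both averaged at least 1 CPM. This left 709 of 868 run pairs and 5753 of 8050 other same-strand pairs. The median r was 0.497 in run pairs (quartiles 0.0356 and 0.766) and 0.387 in the other same-strand pairs (quartiles -0.0399 and 0.706). An r below 0 was seen in 23.3% of run pairs and in 27.1% of other same-strand pairs. Without Comma the medians were 0.452 and 0.292.

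The difference held at every stage. For each stage, r was computed across pairs between the deviations of both genes from their own means, a measure called co-movement here. It averaged 0.354 ± 0.0599 in run pairs and 0.217 ± 0.0721 in other same-strand pairs (SD, n = 11 stages). Run pairs were higher at 11 of 11 stages, by 0.137 on average (SD of the difference 0.0630), with p = 0.000977 in an exact two-sided paired permutation test over stages, the smallest that 11 stages allow, and 0.00195 adjusted over the tests over and within stages. The difference was smallest at Comma (0.365 against 0.357) and largest at 1.5-fold (0.390 against 0.166). Among pairs with both genes at 10 CPM or more it was 0.0618 (higher at 9 of 11 stages, p = 0.0303, same exact permutation test). The median r over the stages was 0.476 in such run pairs and 0.291 in such other same-strand pairs.

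Embryos of the same stage showed a weaker form of it. With each library's deviation from its stage mean, co-movement averaged 0.137 in run pairs and 0.0847 in other same-strand pairs, and run pairs were higher at 9 of 11 stages and in 42 of 53 libraries (adjusted p = 0.00977 in the same exact permutation test). This result did not hold among well-expressed pairs: with both genes at 10 CPM or more the difference was 0.00921 (p = 0.526, same exact test), and with libraries thinned to the smallest total it was 0.0268 (p = 0.0635).

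Close pairs that were not in runs had r values in the same range as pairs in runs. Same-strand pairs with a gap of 1 to 500 bases outside runs had a median r of 0.477 (n = 1119), and head-to-head pairs at the same gaps, whose genes start next to each other on opposite strands, had 0.532 (n = 638). Tail-to-tail pairs at these gaps, whose genes end next to each other, had 0.262 (n = 1317). Same-strand pairs further apart had 0.291 at over 500 to 1000 bases and 0.338 at over 1000 to 5000 bases. Beyond 5000 bases the median r was 0.518, but 0.295 without Comma, where run pairs kept 0.452. Without Comma close same-strand pairs outside runs had 0.461 and head-to-head pairs 0.427, so head-to-head pairs were then below run pairs. Tail-to-tail pairs had 0.169 without Comma.

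These comparisons were tested in the same way over stages, after the data were seen, with p adjusted over 5 tests. Run pairs differed from close same-strand pairs outside runs by -0.0202 in co-movement (SD 0.0550, higher at 3 of 11 stages, exact permutation p = 0.254, adjusted 0.317). They differed from head-to-head pairs by -0.0111 (SD 0.0460, higher at 4 of 11 stages, adjusted p = 0.450, same exact test). Neither p shows that the classes are alike, but by stage the differences ran between -0.123 and 0.0749 in the first comparison and between -0.102 and 0.0588 in the second. Run pairs exceeded tail-to-tail pairs by 0.218 (SD 0.115, higher at 10 of 11 stages, adjusted p = 0.00326, same exact test), with Comma the exception. Within stages, run pairs were below close same-strand pairs outside runs, by -0.0426 (exact permutation p = 0.0469, not adjusted).

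**Figure D3:**
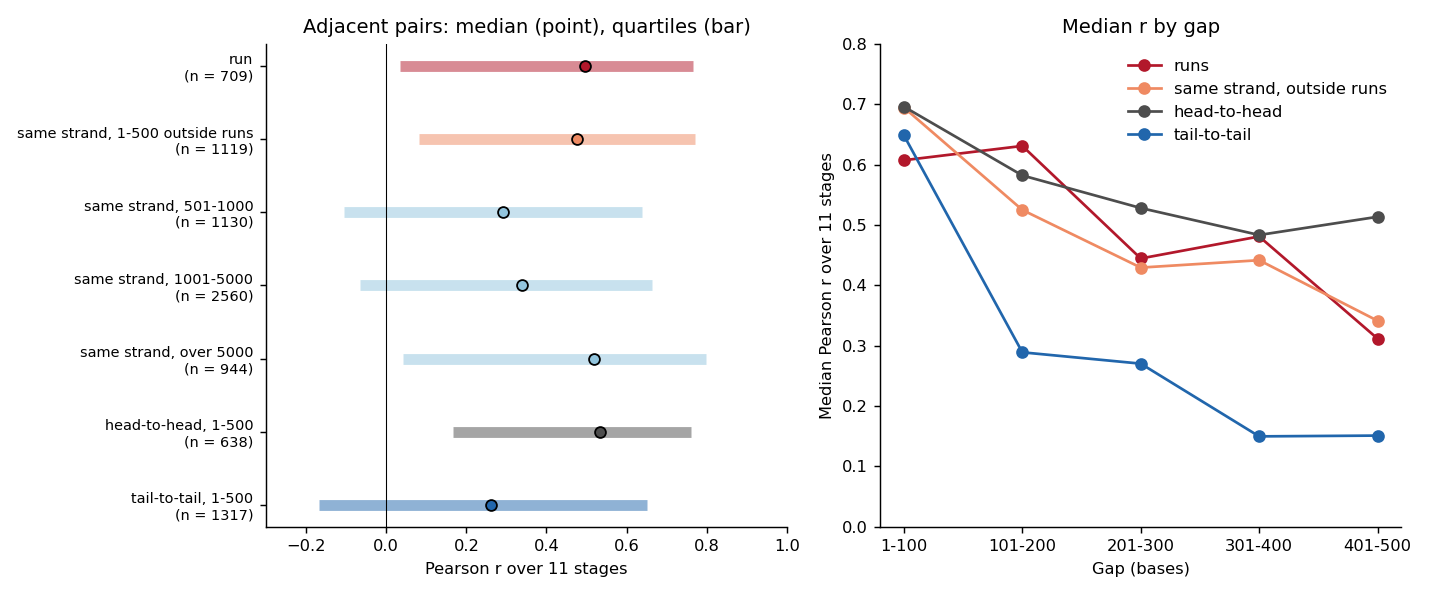
Left, Pearson r over the 11 stages for neighbouring gene pairs by class (points, medians; bars, quartiles; gaps in bases; n, pairs). Right, median r by gap in bases for pairs in runs, close same-strand pairs outside runs, head-to-head and tail-to-tail pairs. Run pairs (0.497) sit near close same-strand pairs outside runs (0.477) and head-to-head pairs (0.532), and tail-to-tail pairs (0.262) sit lower.

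Inside runs, closer genes moved together more. The median r was 0.607 at gaps up to 100 bases, 0.631 at over 100 to 200, 0.445 at over 200 to 300, 0.481 at over 300 to 400 and 0.312 at over 400 to 500. The fall was not particular to runs. Close same-strand pairs outside runs went from 0.695 at gaps up to 100 bases to 0.341 at over 400 to 500. Head-to-head pairs went from 0.696 to 0.514 and tail-to-tail pairs from 0.649 to 0.151. At gaps up to 100 bases each of these classes was above run pairs, but without Comma tail-to-tail pairs were slightly below them. At over 100 to 200 bases run pairs were highest. Close same-strand pairs outside runs had 0.525, head-to-head pairs 0.582 and tail-to-tail pairs 0.289. Without Comma these were 0.527, 0.489 and 0.125, and run pairs had 0.551. At wider gaps head-to-head pairs were above run pairs, at 0.528, 0.483 and 0.514 in order of gap. Without Comma they were above only at over 400 to 500 bases. At over 400 to 500 bases close same-strand pairs outside runs were also above run pairs. These differences between classes were not tested. Co-movement averaged 0.463 in run pairs with a gap up to 200 bases and 0.288 in those with a gap over 200 bases, a difference of 0.174 (SD 0.0747, higher at 11 of 11 stages, adjusted p = 0.00244, exact permutation test). Run pairs up to 100 bases apart were also expressed at a lower level, with a median of 5.55 CPM for the lower gene of a pair against 49.1 CPM at over 100 to 200 bases. A sequenced fragment can bridge a short gap, and what the counting did with such fragments is not given in the sources used here. Its part in the result was not tested.

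Co-movement also fell off along the run. Neighbours had a median r of 0.497, genes 2 places apart 0.285 (n = 407) and genes 3 places apart 0.137 (n = 98). By stage, co-movement averaged 0.354 in neighbours and 0.215 in genes 2 apart, a difference of 0.139 (SD 0.0686, higher at 11 of 11 stages, adjusted p = 0.00244, exact permutation test). Runs whose genes all moved together were a minority. Among the 293 runs whose genes all averaged at least 1 CPM, 74 (25.3%) had every neighbouring r at 0.5 or more and 15 at 0.8 or more. In 123 runs (42.0%) at least 1 neighbouring r was below 0, and in 19 (6.48%) all genes peaked at the same stage. The medians of r by place and these counts of runs include Comma. A run holds at least 2 neighbouring pairs, and 23.3% of single run pairs had an r below 0. These counts of runs are given without a reference from stretches of genes outside runs.

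**Figure D4:**
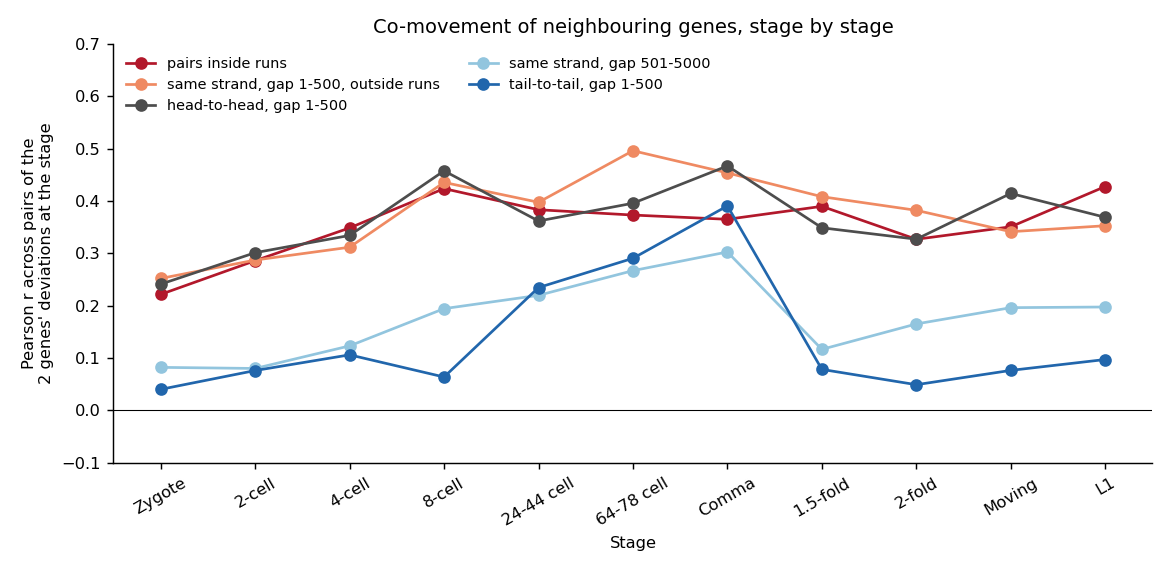
Co-movement (y axis, Pearson r across gene pairs between the deviations of both genes at a stage) at the 11 stages (x axis) for 5 classes of neighbouring pairs. Run pairs lie between 0.221 at Zygote and 0.428 at L1, above same-strand pairs over 500 to 5000 bases apart at each stage, and at Comma tail-to-tail pairs (0.391) lie above run pairs (0.365).

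The other species gave the same order of run pairs and other same-strand pairs by the same rule. The median r was 0.503 in run pairs and 0.367 in other same-strand pairs of D. destructor, and 0.492 and 0.306 in M. incognita. Head-to-head pairs at gaps of 1 to 500 bases were near the run pairs, at 0.472 in D. destructor and 0.483 in M. incognita. In M. incognita 2350 of 5560 run pairs had both genes at 1 CPM or more. Co-movement over stages was higher in run pairs by 0.207 in D. destructor and by 0.149 in M. incognita, each at 11 of 11 stages with p = 0.000977, the smallest possible (exact permutation test, same value adjusted over 3 species). Whether the species differ from each other was not tested.

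Levels inside a run were unequal. In the 293 fully expressed runs the gene with the highest level per kilobase of span exceeded the lowest by a median of 6.09-fold (quartiles 2.93 and 13.1). In transcription order, the first gene was the highest in 112 runs (38.2%) and the last in 69 (23.5%). Among the 221 runs of 3 genes the highest gene was the first in 95, the middle in 68 and the last in 58. Among the 59 runs of 4 genes the first gene was not ahead, since each of the first 3 positions was the highest in 16 runs and the last in 11. The median difference of last minus first gene was -0.45 on the log2 scale per kilobase of span, and it was below 0 in 47 of 53 libraries and above 0 in 2, both from Comma, while in 3 other Comma libraries and 1 Zygote library it was 0. Exon lengths were not used here, so genes with long introns appear lower than they are.

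The run with the closest co-expression was HG15579-HG15581 (contig 212, 213564 to 218844, minus strand), with a median r of 0.941. It is chosen as the highest of 185 runs whose genes all averaged at least 10 CPM, so its r is a description, and without Comma it was 0.709. Its first gene in transcription order, HG15581, had 501.2, 877, 660, 519 and 646 CPM in the 24-44cell libraries, against 370, 251, 364, 340 and 357 CPM in the Zygote libraries. No library overlapped, and the log2 fold change was 1.35 (SE 0.31, edgeR adjusted p = 0.00941). The call was lost with no filter on low counts and with all libraries in 1 fit. HG15580 and HG15579, its other genes, did not pass the test, at 163 and 198 CPM in 24-44cell libraries against 262 and 293 CPM in Zygote libraries. All genes of the run had their lowest level at Comma, at 9.59 to 33.7 CPM on average, so the high r rests in part on that stage.

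Next came HG04932-HG04934 (contig 67, 205386 to 208082, plus strand), with a median r of 0.936, or 0.942 without Comma. Its 3 genes are of similar size, at 690 to 737 bases, and all peaked at L1. HG04933 had 1864, 2412, 1978, 3308 and 3656 CPM in L1 libraries, against 11.5, 14.6, 17.5, 44.2 and 16.4 CPM in 1.5-fold libraries. This was a log2 fold change of 7.24 (SE 0.60, edgeR adjusted p = 3.32e-06). HG04934 rose with it, with 67.7 to 145 CPM at L1 against 0 to 8.70 CPM at 1.5-fold (log2 fold change 4.83, SE 0.95, edgeR adjusted p = 0.00274), a call lost with all libraries in 1 fit.

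HG04932, the first gene of that run, had 733, 477, 536, 862 and 1223 CPM in L1 libraries, against 266, 468, 223, 20.2 and 363 CPM in 1.5-fold libraries. The log2 fold change was 1.91 (SE 0.58, edgeR adjusted p = 0.0403), and 8 of 15 alternatives lost the call, among them leaving out replicate 1, 3 or 5 at 1.5-fold or 1, 4 or 5 at L1, with adjusted p up to 0.460. Its larger step came earlier, with 20.2 to 468 CPM at 1.5-fold against 0 to 25.1 CPM at 24-44cell (log2 fold change 5.49, SE 1.18, edgeR adjusted p = 0.00377). Embryos of 1 stage did not show the same coupling, since the within-stage r was -0.199 for HG04932 and HG04933 and 0.136 for HG04933 and HG04934.

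The run after that was HG11999-HG12001 (contig 172, 855911 to 859394, plus strand), with gaps of 150 and 164 bases and a median r of 0.908 (0.736 without Comma). Its genes averaged 76.5, 134 and 97.9 CPM over the stages, and each was lowest at Comma. None of the 3 passed the test in any of the 3 comparisons between stages.

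At the other end, HG13814-HG13816 (contig 192, 48878 to 55279, minus strand) had the lowest median r of the 185 runs, at -0.867, or -0.479 without Comma. Its middle gene, HG13815, had 595, 335, 289, 488 and 104 CPM in the Comma libraries and a stage mean of 1.56 to 25.6 CPM at the other stages. The flanking HG13816 and HG13814 had their lowest stage means at Comma, 76.7 and 56.9 CPM, against 324 and 228 CPM at Zygote. The gap between HG13815 and HG13814 was only 59 bases. HG15868-HG15870 (contig 213, 305930 to 309681, minus strand) had a median r of -0.575 (-0.513 without Comma) and a middle gene, HG15869, whose highest stage mean was 87.5 CPM at Comma and lowest 1.31 CPM at 2-cell.

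HG16279-HG16282 (contig 225, 37629 to 46807, plus strand) had a median r of -0.579 that did not rest on Comma (-0.522 without it). Its first 2 genes, HG16279 and HG16280, went together with an r of 0.696, while HG16280 and the next gene, HG16281, had an r of -0.713. HG16281 was highest at Zygote (166 CPM) and HG16280 at 64-78cell (138 CPM). HG16281 and the last gene, HG16282, also ran against each other, with an r of -0.579, or -0.522 without Comma.

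**Figure D5:**
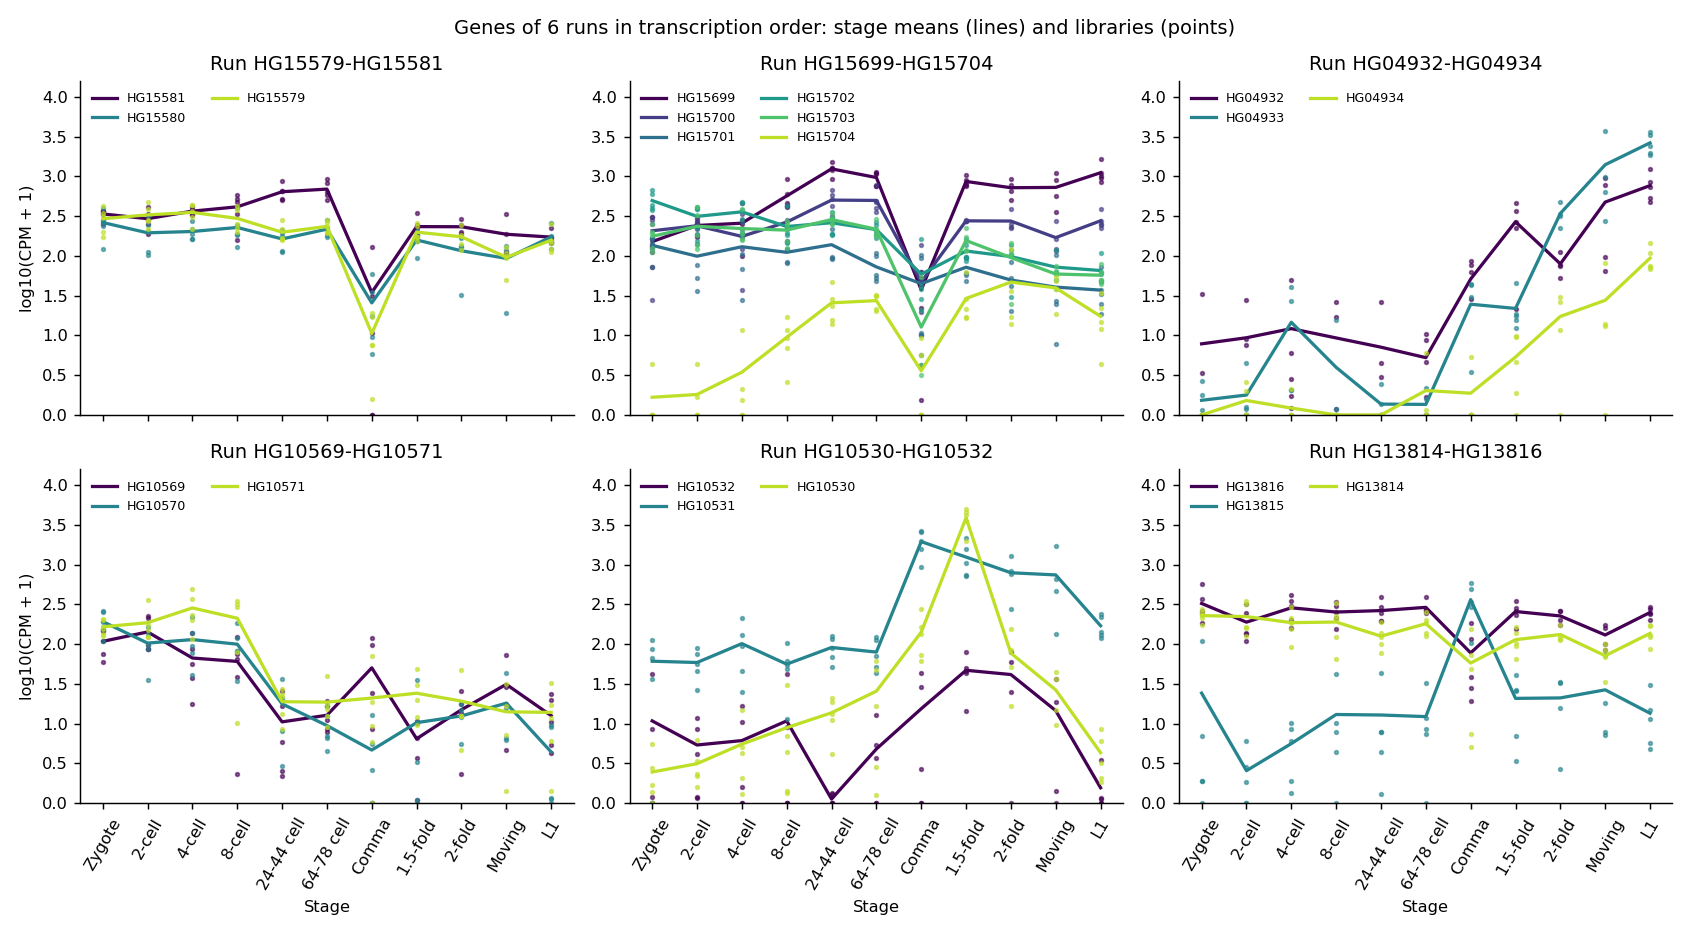
Level as log10(CPM + 1) (y axes) at the 11 stages (x axes) for the genes of 6 runs, coloured in transcription order from dark to light, with lines for stage means and points for libraries. The run HG15579-HG15581 dips as one at Comma, HG04932-HG04934 climbs to L1, HG10569-HG10571 is highest between Zygote and 4-cell, HG10530-HG10532 is high at 1.5-fold, and in HG13814-HG13816 the middle gene is high at Comma where its neighbours are low.

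The most abundant run was HG10890-HG10892 (contig 156, 549411 to 556574, minus strand), with a summed mean of 1701 CPM, nearly all of it from its first gene, HG10892. HG10892 had 2972, 6023, 5447, 5485 and 6652 CPM in 24-44cell libraries, against 624, 1002, 988, 773 and 682 CPM in Zygote libraries. The log2 fold change was 3.12 (SE 0.31, edgeR adjusted p = 2.54e-05). It fell again to 411 to 899 CPM at 1.5-fold (log2 fold change -2.88 against 24-44cell, SE 0.37, edgeR adjusted p = 6.93e-05). Its neighbours HG10891 and HG10890 averaged 48.6 and 33.8 CPM and passed the test in none of the 3 comparisons.

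HG15699-HG15704 (contig 212, 785901 to 797891, plus strand), with 6 genes, followed in abundance, at 1357 CPM. HG15699 had 931 to 1527 CPM in 24-44cell libraries, against 71.1 to 305 CPM in Zygote libraries (log2 fold change 3.43, SE 0.43, edgeR adjusted p = 0.000205). HG15700 rose less, to 503 CPM on average against 206 CPM (log2 fold change 1.73, SE 0.52, edgeR adjusted p = 0.0447), and 9 of 15 alternatives lost this call, among them leaving out replicate 3, 4 or 5 of Zygote or replicate 2, 3, 4 or 5 of 24-44cell, with adjusted p up to 0.105. The r of neighbours ran between 0.125 for HG15703 and HG15704 and 0.937 for HG15701 and HG15702. Without Comma these were -0.410 and 0.913, and the r of HG15700 and HG15701 went from 0.518 to 0.109. HG15704, the last gene, was nearly absent at first, at 0.666 CPM at Zygote, and reached 45.9 CPM at 2-fold.

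Next in abundance, HG12059-HG12065 (contig 172, 1052295 to 1072083, plus strand), held 7 genes with 1274 CPM in sum and no common profile (median r -0.00862). HG12061 had 747 CPM in L1 libraries against 41.8 CPM in 1.5-fold libraries (log2 fold change 4.55, SE 0.56, edgeR adjusted p = 6.97e-05), and none of its 6 run mates passed the test in that comparison. On the same contig, the 8 genes of HG12341-HG12348 (2082971 to 2102176, minus strand) had r values between -0.392 and 0.640, with a median of 0.400. Without Comma the values ran between -0.413 and 0.604, with a median of 0.408, and the r of HG12342 and HG12341 went from -0.362 to 0.604. The closest pair of the run, HG12345 and HG12344, lay 22 bases apart, the smallest gap of any run, and had an r of 0.400 over stages and 0.618 within stages.

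Development was compared over 3 steps with the edgeR quasi-likelihood test over all genes, at an adjusted p under 0.05. They share the 24-44cell and the 1.5-fold libraries, so they are not independent of each other. In 24-44cell against Zygote, 8.70% of tested members and 10.7% of all tested genes were called, in 1.5-fold against 24-44cell 16.3% and 19.8%, and in L1 against 1.5-fold 7.94% and 15.6%. In 24-44cell against Zygote, 56 of 782 tested members were higher (7.16%), against 7.14% of all genes, and 12 were lower (1.53%), against 3.6% of all genes. In 1.5-fold against 24-44cell, 54 of 886 were higher (6.09%, all genes 11.3%) and 90 were lower (10.2%, all genes 8.46%). In L1 against 1.5-fold, 38 of 932 were higher (4.08%, all genes 9.75%) and 36 were lower (3.86%, all genes 5.88%). The share of members that rose at 24-44cell was near the background, and at the later steps it was below it, with no test of these differences. The larger share of members that fell at 1.5-fold was not stable. Without replicate 2 of 1.5-fold 5.84% of members and 6.33% of all genes were lower, without replicate 3 these were 5.70% and 6.24%, and without replicate 1 they were 6.004% and 6.05%. With all libraries in 1 fit 1.91% of members and 2.13% of all genes were lower. The balance of directions among members, 54 higher and 90 lower, was 42 and 21 with all libraries in 1 fit and 74 and 55 with no filter on low counts.

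The median log2 fold change of tested members, beside that of all tested genes, was 0.15 and 0.18 in 24-44cell against Zygote, -0.29 and 0.00 in 1.5-fold against 24-44cell, and -0.12 and -0.06 in L1 against 1.5-fold. Some counts fell when 1 library was left out, among members and among all tested genes. The 12 members lower at 24-44cell became 5, 5 and 4 without replicate 2, 4 or 5 of 24-44cell. Over all tested genes, the 270 lower calls became 174, 186 and 171. The 90 members lower at 1.5-fold became 55, 52 and 51 without replicate 1, 2 or 3 of 1.5-fold. Over all tested genes, the 772 lower calls became 591, 594 and 582. Leaving out any 1 library lowered the 90, to between 51 and 83.

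Few members were called, at 8.70%, 16.3% and 7.94% of those tested (all genes 10.7%, 19.8% and 15.6%), so few runs could hold several calls. A called member was present in 60 runs in 24-44cell against Zygote, in 117 in 1.5-fold against 24-44cell and in 62 in L1 against 1.5-fold. At least 2 members were called in 7, 24 and 9 of them. These counts of runs are given without a reference from stretches of genes outside runs. Where both genes of a neighbouring run pair were called, they moved in the same direction in 5 of 5, 18 of 19 and 8 of 9 pairs in these comparisons. Other same-strand pairs did so in 24 of 32, 108 of 138 and 98 of 135 pairs, and close same-strand pairs outside runs in 9 of 11, 35 of 43 and 19 of 23 pairs. Head-to-head pairs did so in 6 of 10, 15 of 15 and 11 of 12 pairs. Over all pairs with both genes tested, called or not, the share with the same direction was 54.5%, 66.0% and 57.9% in run pairs and 55.6%, 58.3% and 54.6% in other same-strand pairs, so it was lower in run pairs in the first comparison. These are counts with no test.

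The run with the most members called in 24-44cell against Zygote was HG10569-HG10571 (contig 155, 452418 to 456992, plus strand), in which all 3 genes fell. HG10571 had 22.9, 7.65, 12.2, 20.7 and 26.1 CPM in 24-44cell libraries, against 154, 198, 127, 135 and 208 CPM in Zygote libraries (log2 fold change -2.85, SE 0.63, edgeR adjusted p = 0.00830). HG10570 had 1.91 to 35.5 CPM, against 109 to 258 CPM (log2 fold change -3.18, SE 0.73, edgeR adjusted p = 0.0103). No library of either gene overlapped between the stages.

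HG10569, the first gene of this run, was also the member with the largest fall of the comparison, with 24.4, 4.95, 1.17, 1.53 and 15.6 CPM in 24-44cell libraries, against 147, 75.03, 149, 58.1 and 108 CPM in Zygote libraries. Its log2 fold change was -3.19 (SE 0.96, edgeR adjusted p = 0.0440). The call was lost in 8 of 15 alternatives, among them leaving out replicate 1, 3 or 5 of Zygote or replicate 2, 3, 4 or 5 of 24-44cell, with adjusted p up to 0.106. The median r of the run over the stages was 0.877, or 0.903 without Comma, and all 3 genes had their highest stage mean at 4-cell or earlier.

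The largest rise of a member in the same comparison was that of HG12178 (contig 172, 1504782 to 1505913, plus strand), in the run HG12177-HG12179. It had 4.00, 11.7, 8.74, 21.0 and 9.49 CPM in 24-44cell libraries and no counts in the Zygote libraries. Against a floor of 3 counts over the Zygote group, it was at least 82.1-fold higher (edgeR adjusted p = 0.0105, or 0.0618 with replicate numbers as a block).

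HG10530-HG10532 (contig 155, 324355 to 336567, minus strand), with gaps of 450 and 452 bases, lay near the limit of the rule. In each later comparison it was 1 of 2 runs with 3 members called in the same direction, the tie being settled by the larger median fold change, and in L1 against 1.5-fold the other was HG04932-HG04934. HG10530 had 4265, 3553, 5045, 4581 and 1995 CPM in 1.5-fold libraries, against 3.11, 12.2, 20.1, 18.0 and 10.2 CPM in 24-44cell libraries. This was the largest rise of a member under the naming rule, with a log2 fold change of 8.30 (SE 0.64, edgeR adjusted p = 1.24e-06). At L1 it was at 1.05, 5.03, 7.49, 0.831 and 2.16 CPM, the largest fall of a member against 1.5-fold (log2 fold change -9.92, SE 0.75, edgeR adjusted p = 1.56e-06).

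Its neighbours followed on different scales. HG10531 had 716 to 2173 CPM in 1.5-fold libraries, against 50.9 to 127 CPM in 24-44cell libraries (log2 fold change 3.86, SE 0.43, edgeR adjusted p = 2.31e-05), but it had already reached 1949 CPM at Comma. In L1 libraries it was at 120 to 237 CPM, a log2 fold change of -2.59 against 1.5-fold (SE 0.39, edgeR adjusted p = 0.000338). HG10532 had 45.5, 79.5, 42.1, 49.4 and 13.3 CPM in 1.5-fold libraries, against 2 counts in all 24-44cell libraries together (edgeR adjusted p = 0.000140), and at most 2.49 CPM in L1 libraries (edgeR adjusted p = 0.00532, a call lost with all libraries in 1 fit). The 3 genes thus rose into 1.5-fold and fell by L1 in the same direction, with stage means at 1.5-fold of 45.96 CPM in HG10532, 1245 CPM in HG10531 and 3888 CPM in HG10530, in transcription order.

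The largest fall of a member at 1.5-fold against 24-44cell was HG10609 (contig 155, 620889 to 623166, plus strand), in the run HG10609-HG10611. It had 20.7, 10.5, 11.3, 0.217 and 36.4 CPM in 1.5-fold libraries, against 1064, 323, 1524, 479 and 988 CPM in 24-44cell libraries (log2 fold change -5.90, SE 0.88, edgeR adjusted p = 0.000246). It was also higher at 24-44cell than at Zygote, where it had 0 to 107 CPM (log2 fold change 4.80, SE 0.76, edgeR adjusted p = 0.00102). Its highest stage mean was 1135 CPM, at 8-cell. The largest rise of a member at L1 against 1.5-fold was HG00396 (contig 10, 367615 to 369855, minus strand), with 94.3, 45.0, 76.8, 143 and 61.9 CPM in L1 libraries, against 0.109 to 1.21 CPM in 1.5-fold libraries (log2 fold change 7.90, SE 0.76, edgeR adjusted p = 9.92e-06, from 8 counts at 1.5-fold).

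Members were called in opposite directions within 1 run in 1, 4 and 2 runs of the 3 comparisons. At least 2 called members were present in 7, 24 and 9 runs. In HG13354-HG13358 (contig 185, 1560558 to 1569159, plus strand), HG13354, the first gene, rose at 24-44cell against Zygote (232 against 68.0 CPM, log2 fold change 2.21, SE 0.50, edgeR adjusted p = 0.00958). HG13358, the last, fell (14.9 against 148 CPM, log2 fold change -3.01, SE 0.84, edgeR adjusted p = 0.0306), a call lost without replicate 4 of Zygote or replicate 2, 3, 4 or 5 of 24-44cell, among others (adjusted p up to 0.0961).

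In HG14151-HG14153 (contig 193, 369381 to 376951, plus strand), the last gene, HG14153, had 239 CPM at 1.5-fold against 1.05 CPM at 24-44cell (log2 fold change 7.80, SE 0.74, edgeR adjusted p = 5.72e-06). The first gene, HG14151, fell to 133 CPM at 1.5-fold, against 368 CPM at 24-44cell (log2 fold change -1.40, SE 0.33, edgeR adjusted p = 0.00726). That call was lost with all libraries in 1 fit (adjusted p = 0.146), and with it the opposite directions within the run. HG14152 between them had 48.2 CPM at 1.5-fold against 57.3 CPM at 24-44cell and did not pass the test. HG14153 was back at 0.700 CPM at L1 (log2 fold change -7.96 against 1.5-fold, SE 1.06, edgeR adjusted p = 0.000139).

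In HG00349-HG00351 (contig 10, 197303 to 202838, minus strand), HG00350 had 4.18, 0.140, 7.2, 1.25 and 0 CPM at L1, against 156, 134, 159, 73.0 and 144 CPM at 1.5-fold (log2 fold change -5.38, SE 0.93, edgeR adjusted p = 0.00105). HG00351, upstream of it, fell as well, to 0 to 3.53 CPM against 24.9 to 70.9 CPM (log2 fold change -4.94, SE 1.08, edgeR adjusted p = 0.00585, lost with all libraries in 1 fit). HG00349, the last gene, had 2.29 to 14.1 CPM at L1 against 0 to 1.21 CPM, 5 counts, at 1.5-fold (log2 fold change 4.52, SE 1.33, edgeR adjusted p = 0.0330). That call was lost in 9 of 15 alternatives, among them leaving out replicate 1, 2 or 3 of 1.5-fold or 2, 3 or 5 of L1, with adjusted p up to 0.2. HG00351 and HG00350 had an r of 0.888 over the stages and HG00350 and HG00349 had -0.167, at nearly the same gaps of 246 and 243 bases.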

How the data were processed

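Whole single embryos were lysed and sequenced with Smart-seq2, which adds no molecular identifiers, so counts are reads and not molecules. Trimming by the authors used fastp (version 0.20.1), alignment used HISAT2, and HTSeq gave the raw counts per gene that were deposited with each gene's contig, start, end and strand. For H. glycines the sources used here do not give the genome build, whether HTSeq used strand, or how it treated reads on several genes. Every column was used, and 0 of the H. glycines IDs were in the reference table at hand, so no names or sequences are given.

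Counts were divided by the library total and multiplied by 1000000 (CPM), and log2(CPM + 1) was used for r and co-movement, with both genes of a pair at a mean of at least 1 CPM. Deviations at a stage were taken from each gene's mean over the 11 stage means. Co-movement was tested by sign flips over stages with scipy (version 1.17.1). Stage comparisons ran in edgeR (version 4.0.16, under R 4.3.3), with TMM, filterByExpr and glmQLFTest on the libraries of the 2 stages, Benjamini-Hochberg adjusted over all genes tested. The SE printed with a log2 fold change is its absolute value divided by the square root of the F statistic of the test. It is derived from the test and was not estimated separately. The alternatives comprised DESeq2 (version 1.42.0), no filter, RLE factors, replicate numbers as a block, all libraries in 1 fit, other pseudocounts, limits, reference pairs and scalings, and the omission of each library. Scripts were checked on simulated data. Comparisons with the close same-strand and the head-to-head pairs alone, and the omission of evenly spaced runs, were added after the data were seen.

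The members, tests and naming rules were chosen with earlier results of these data known. Runs named were the 3 with the most genes, the 3 with the highest summed CPM, the 3 with the highest and the 3 with the lowest median r among runs with all genes at 10 CPM or more, and, for each comparison, the run with the most members called one way and the one called in both directions with the largest difference of fold change. Genes named were the members of those runs and, for each comparison, the member with the largest rise and fall among those with an adjusted p under 0.05, 10 CPM or more on average where it was higher, and no overlap of libraries. The evenly spaced run HG14759-HG14765 was named after its values were seen. Share tests were computed but are given as values only.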

Additional observations from a re-analysis of the deposited data

Results flagged for a closer look

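In 22 groups of 4 or 5 libraries, 3 libraries stood far from the rest of their stage by Dixon's criterion, where chance alone flags about 1 group in 20. Replicate 3 of 24-44cell had the highest share of counts in genes of runs at its stage, 12.3%, where the stage mean was 11.6%. Replicate 2 of 2-fold had the highest share of its stage, 10.02%, with the stage median at 8.29%. Replicate 5 of 2-cell had the highest within-stage co-movement of run pairs of its stage, at 0.140, with the stage mean at 0.0685.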

How the results depend on the processing

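Co-movement over stages stayed higher in run pairs than in other same-strand pairs under every alternative of scale, filter and limit, at 0.0618 with both genes at 10 CPM or more and 0.206 at a limit of 200 bases, and the omission of 1 replicate number gave differences of 0.128 to 0.137. It was -0.0202 against close same-strand pairs outside runs and -0.0111 against head-to-head pairs. Within stages the difference was 0.0274 with a pseudocount of 10, 0.00921 with both genes at 10 CPM or more, 0.0268 with thinned libraries, 0.0255 against opposite-strand pairs at 1 to 500 bases, 0.00555 against head-to-head pairs and -0.0426 against close same-strand pairs outside runs, and 0.0455 to 0.0568 with 1 replicate number left out. It was 0.162 at a limit of 200 bases, with 149 run pairs, and 0.0299 at a limit of 1000 bases. Against same-strand pairs at over 500 to 5000 bases it was 0.0759, and with a pseudocount of 0.1 it was 0.0707. The median r of run pairs was 0.709 at a limit of 200 bases, against 0.393 in other same-strand pairs, and 0.413 at 1000 bases, against 0.395, so that the difference was only 0.0184 there. It was 0.447 to 0.484 with 1 replicate number left out. With a single replicate number the medians of run pairs exceeded those of other pairs by 0.0623, 0.0452, 0.00565 and 0.195 for numbers 1, 2, 4 and 5, but for number 3 the difference was -0.0531. The medians of run pairs and of other same-strand pairs were 0.445 and 0.327 with Spearman, and 0.440 and 0.340 thinned. They were 0.476 and 0.291 at 10 CPM or more, and 0.439 and 0.269 without Comma when pairs were filtered anew. The median of the other same-strand pairs was 0.348 to 0.380 with 1 replicate number left out. Of the classes put in their place, pairs at over 500 to 5000 bases had 0.328, close pairs outside runs 0.477 and head-to-head pairs 0.532.

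The share of counts at 24-44cell minus Zygote was 0.118 percentage points, but -0.809 without the 10 members with the most counts and -0.0649 to 0.327 with 1 library left out (-0.0602 without 24-44cell replicate 3 and -0.0649 without Zygote replicate 5), and the mean log2(CPM + 1) of members was 0.29 higher. For 1.5-fold minus 24-44cell the share differed by -2.60 to -2.34 with 1 library left out, but the mean log2(CPM + 1) by 0.11. For L1 minus 1.5-fold it differed by -2.27 to -1.78.

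Members called in 24-44cell against Zygote were 125 higher (13.4%, all genes 15.4%) and 48 lower (5.13%, all genes 6.75%) with DESeq2, 98 (8.91%, all genes 9.03%) and 21 (1.91%, all genes 3.67%) with all libraries in 1 fit, and 41 to 67 and 4 to 18 with 1 library left out. In 1.5-fold against 24-44cell, 107 were higher (10.1%, all genes 14.9%) and 108 lower (10.2%, all genes 8.19%) with DESeq2, 74 (6.26%, all genes 7.71%) and 55 (4.65%, all genes 4.12%) without a filter, 42 (3.82%, all genes 4.55%) and 21 (1.91%, all genes 2.13%) in 1 fit, and 47 to 64 and 51 to 83 with 1 library left out. In L1 against 1.5-fold they were 60 (5.64%, all genes 11.1%) and 85 (7.99%, all genes 10.01%) with DESeq2, 9 (0.818%, all genes 2.82%) and 22 (2.0%, all genes 3.20%) in 1 fit, and 32 to 47 and 26 to 48 with 1 library left out. The causes were not tested. Of 44 called changes of named genes, 24 kept their call under every alternative run and 0 reversed.

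Deviations of same-numbered libraries were at most weakly correlated (r -0.111 to 0.0527), and the labels do not pair them. In each comparison the same number was the best match for some replicates and not for others. With the replicate number as a block, 51 members were higher (6.52%, all genes 6.70%) and 5 lower (0.639%, all genes 2.59%) in the first comparison. In the third, 33 were higher (3.54%, all genes 7.96%) and 27 lower (2.90%, all genes 4.95%). In the second comparison 57 were higher (6.43%, all genes 10.7%) and 40 lower. In the second, the lower calls were then 4.51% of members and 5.88% of all genes, so the excess over all genes seen without the block turned.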
